A study of Mus musculus with 12 samples.

Results

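The microRNAs (miRNAs) miR-10, miR-99, miR-100 and miR-125 of mouse hippocampal CA1 were taken as every row of the deposited miRNA count table named miR-10, miR-99, miR-100 or miR-125, with any letter, copy or arm. The rule gave 13 of 495 named rows, which belong to 7 miRNAs (miR-10a, miR-10b, miR-99a, miR-99b, miR-100, miR-125a and miR-125b). All 13 passed the filter on low counts. The libraries were small RNA sequencing libraries from dissected CA1 of mice on a C57BL/6J background, which were 3 to 5 months old. The Control group was Kat2afl/fl (6 libraries), and the Kat2a cKO group carried Kat2afl/fl together with CamKIIα-cre+ (6 libraries), so that both groups share the floxed allele and only the cKO group carries Cre. Kat2a encodes a histone acetyltransferase, and the series asks about its part in hippocampal memory formation. The CamKIIα promoter is active mainly in excitatory forebrain neurons, so glia, vessel cells and most inhibitory neurons of the dissected tissue are not targeted. The labels do not say whether each library came from a separate animal, and p-values therefore measure the spread between these libraries. In such tissue, fewer cells of a type and less RNA per cell cannot be told apart.

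An miRNA is cut from a hairpin, and either arm of the hairpin can be loaded into an Argonaute protein, where the seed (bases 2 to 8) pairs with target mRNAs. The miR-99/100, let-7 and miR-125 hairpins lie together in conserved clusters, whereas the miR-10 hairpins lie within Hox gene clusters, which pattern the body axis and are mostly silent in the forebrain. miR-125b is abundant in brain, and miR-125 targets include Lin28, whose protein blocks the processing of let-7 precursors. miR-99 and miR-100 are known to target Mtor.

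The mature sequences are shown because the 7 guides fall into 3 seed groups, and because some members differ by a single base. They come from RefSeq (GRCm38.p6), which held an entry for 13 of 13 rows. Capitals mark the seed. Rows without an arm mark were taken as the 5p arm and starred rows as the 3p arm, after later miRNA names.
miR-10a: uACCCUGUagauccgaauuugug
miR-10b: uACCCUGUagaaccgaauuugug
miR-99a: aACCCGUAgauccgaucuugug
miR-99b: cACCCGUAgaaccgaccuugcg
miR-100: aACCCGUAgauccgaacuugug
miR-125a-5p: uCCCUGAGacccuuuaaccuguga
miR-125b-5p: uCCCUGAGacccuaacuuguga
miR-99a*: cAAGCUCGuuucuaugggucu
miR-99b*: cAAGCUCGugucuguggguccg
miR-100*: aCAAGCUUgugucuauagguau
miR-125a-3p: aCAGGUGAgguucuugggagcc
miR-125b-1-3p: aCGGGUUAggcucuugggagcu
miR-125b-2-3p: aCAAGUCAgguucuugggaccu

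Over the 13 rows there were 8 seeds. miR-10a and miR-10b shared ACCCUGU, miR-99a, miR-99b and miR-100 shared ACCCGUA, and both miR-125 5p arms shared CCCUGAG. Counted from the 5′ end, miR-10b differed from miR-10a by U12A, and miR-100 differed from miR-99a by U16A. miR-99b differed from miR-99a by A1C, U11A, U16C and U21C. The first 13 bases of miR-125a-5p and miR-125b-5p were identical. Reads with a sequencing error at a single distinguishing base could be given to the wrong member of a pair, so the split between miR-10a and miR-10b, and between miR-99a and miR-100, is uncertain to that extent. Among the 3p arms, miR-99a* and miR-99b* shared AAGCUCG, and the other 4 each had a seed of their own. The 3p arms of miR-125b differ between its copies, so they tell the copies apart, whereas the 5p arm is the same from both hairpins.

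By the GENCODE M21 annotation (GRCm38, plus strand for every member), Mir99a (chr16:77598936-77599000) and Mir125b-2 (chr16:77646273-77646343) lie in introns of the noncoding gene Mir99ahg, with Mirlet7c-1 between them, over 47408 bases. Mir100 (chr9:41531425-41531504) and Mir125b-1 (chr9:41581926-41582002) flank Mirlet7a-2 in introns of 3110039I08Rik, the noncoding gene that RefSeq also names Mir100hg, over 50578 bases. The third cluster spans 692 bases of the protein-coding gene Spaca6, with Mir99b (chr17:17830188-17830257) in an intron, then Mirlet7e, then Mir125a (chr17:17830812-17830879) overlapping an exon. Mir10a (chr11:96317165-96317274) lies between Hoxb5 and Hoxb4, and Mir10b (chr2:74726070-74726137) lies in introns of Hoxd3 and Hoxd4. Mir99a and Mir100 also overlap annotated genes of the minus strand, and the Mir125b hairpins overlap exons of other noncoding or unclassified genes. The genome build the authors used is not given in the sources used here.

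Totals of named miRNA reads ran from 2449121 to 10116062 a library. On the first principal component of the other 481 miRNAs, which held 48.7% of their variance, Control 1, Control 2, Kat2a cKO 1 and Kat2a cKO 3 lay at -8.65 to -7.74 and the other 8 libraries at 0.53 to 6.23. These 4 libraries, 2 of each genotype, stand apart, and values with and without them are given where a result rests on them. Kat2a itself had 0 to 8 reads in each Control library and 0 to 5 in each cKO library in the deposited table of all RNAs, with 23 and 13 reads in all, too few to check the genotype. The neuron miRNA list (17 rows) summed to 61847 to 82699 counts per 1e+06 reads (CPM) a library, and the markers of caudal neural tissue (miR-196a, miR-196b and miR-615) have no row and were not analysed here. No row of the lists of neurons, vessels (9 rows), oligodendrocytes (5), red cells (4) or microglia and leukocytes (9) passed the test between genotypes, with median log2 fold changes of -0.03, 0.17, -0.24, 0.30 and -0.0021. The vessel rows of miR-199a-3p and miR-199b hold identical counts, so the median and sums of that list hold the same reads under both names. In the list of choroid plexus and epithelium, 1 of 13 passed, miR-203, with a list median of 0.08.

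The 13 rows took 5.11 ± 2.37% of named miRNA reads in Control and 5.02 ± 1.11% in Kat2a cKO (SD, n = 6 each). The miR-125 5p arms accounted for 2.96 ± 1.21% and 2.80 ± 0.85%, and the miR-99 and miR-100 guides for 2.01 ± 1.20% and 2.08 ± 0.49%. The miR-10 guides held 0.0260 ± 0.0130% and 0.0292 ± 0.0121%. The named miRNA reads of CA1 thus held much miR-125 and miR-99/100 and little miR-10, in both genotypes.

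**Figure D1:**
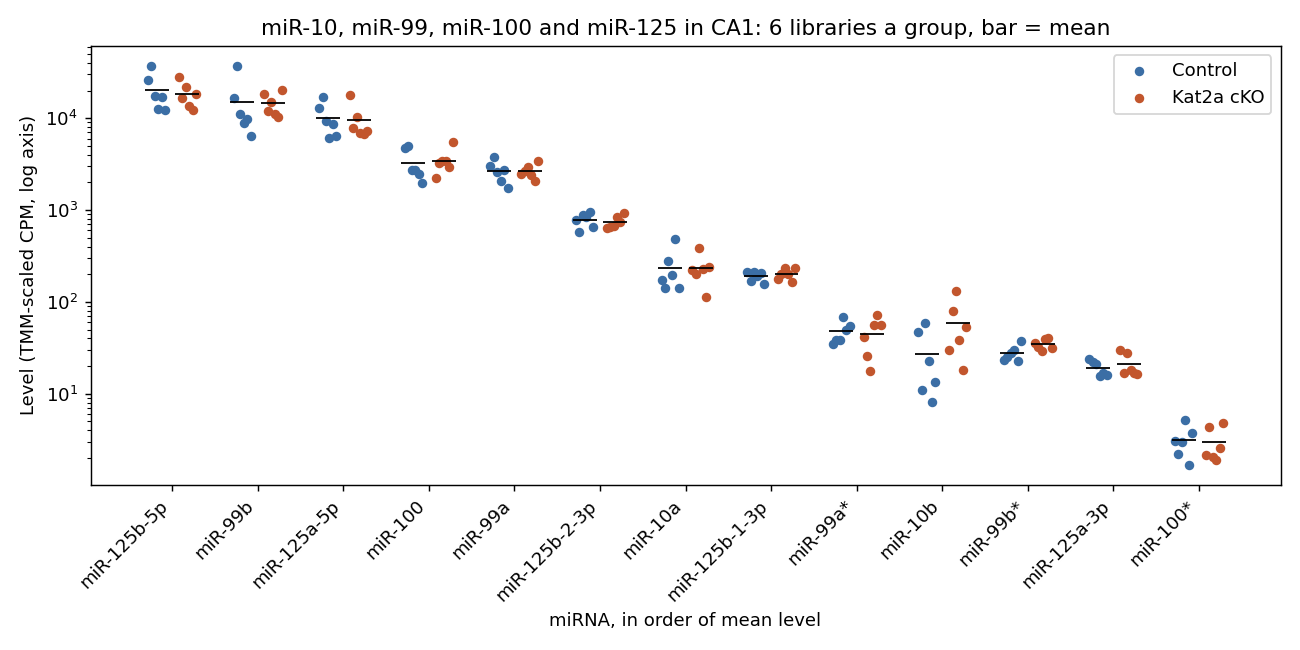
Levels of the 13 rows in each library, as TMM-scaled CPM on a log axis, in order of mean level, with Control and Kat2a cKO side by side and a bar at each group's mean (n = 6). The groups overlap for every row, and the widest scatter is that of miR-10b, from 8.15 to 130 CPM.

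Levels are CPM, scaled between libraries by the trimmed mean of M-values (TMM). The mature sequences are 21 to 24 bases long, so levels were set beside each other with no correction for length. How evenly different sequences were captured in the libraries was not tested, so the order below is one of reads. miR-125b-5p was the most abundant, eleventh in the whole table, and stood above miR-99b in 11 of 12 libraries. The table of all RNAs gave another order, described with that table. In the miRNA table, miR-99b exceeded miR-125a-5p in 11 of 12 libraries. miR-125a-5p was above miR-100 in every library. miR-100 and miR-99a were close, with a ratio of 0.888 to 1.61 (median 1.26), and miR-100 was the higher in 10 of 12. The 3p arm miR-125b-2-3p followed. The order of miR-10a and miR-125b-1-3p was not settled, since miR-10a was the higher in 7 of 12 libraries. Likewise miR-99a* exceeded miR-10b in 8 of 12 and miR-10b exceeded miR-99b* in 5 of 12, so these neighbours did not differ beyond their spread. miR-99b* was above miR-125a-3p in 11 of 12 libraries, and miR-100* was lowest throughout, with 5 to 46 reads a library.

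None of the 13 rows passed the test of a difference between Kat2a cKO and Control. In edgeR's quasi-likelihood test over 494 miRNAs with Benjamini-Hochberg adjustment, 0 of 13 passed an adjusted p of 0.05, where 0.202% of all tested miRNAs did (1, miR-203, which was higher in cKO). At an unadjusted p under 0.05 edgeR had 0 of the 13, against 4.25% of all miRNAs. DESeq2 also called 0 of 13 after adjustment, against 0.405% of all miRNAs, and 1 of 13 before it, against 4.66% of all miRNAs. All 13 rows overlapped between the groups, whereas 0.405% of all tested miRNAs did not. The log2 fold change was above 0 for 6 members and below 0 for 7, with a median of -0.02, beside -0.0022 over all miRNAs.

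**Figure D2:**
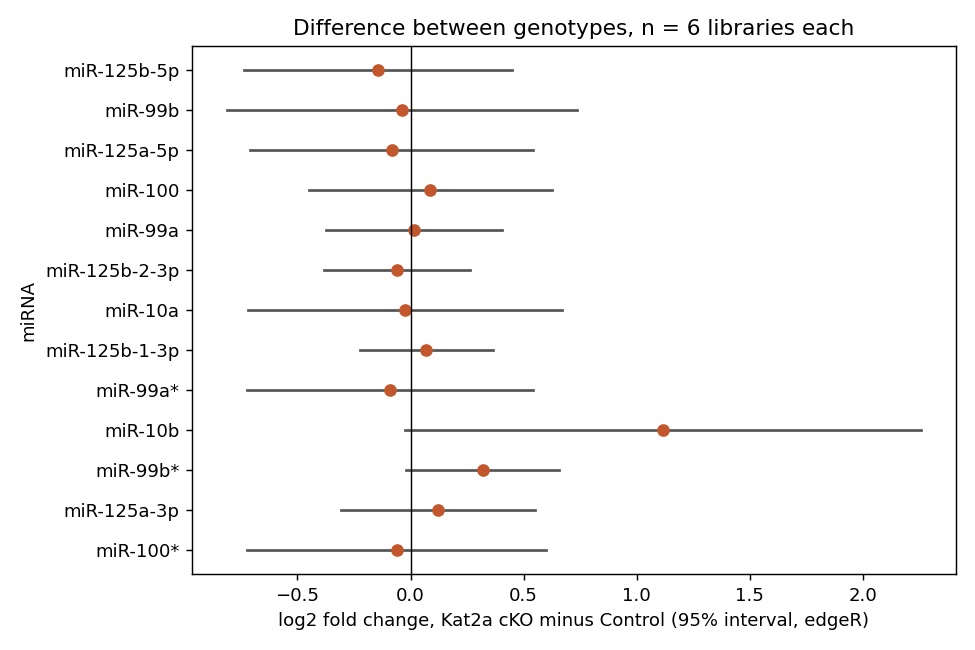
Log2 fold change of each row, Kat2a cKO minus Control, with its 95% interval from edgeR (n = 6 libraries each). Every interval spans 0, those of the miR-125b 3p arms are the narrowest, and that of miR-10b is the widest, from -0.02 to 2.26.

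The miR-125 guides are the most abundant seed group. miR-125b-5p, a brain-enriched miRNA with Lin28 among its targets, ran from 12226 through a median of 17248 to 37115 CPM in Control, and from 12421 through 17400 to 28019 CPM in cKO. Its log2 fold change was -0.14 ± 0.28 (SE; 95% interval -0.73 to 0.45; edgeR adjusted p = 0.997). The medians are close, and the highest library of all is a Control. miR-125a-5p, which carries the same seed, ran from 6061 through 8922 to 17007 CPM in Control and from 6750 through 7542 to 17791 CPM in cKO, with a log2 fold change of -0.08 ± 0.29 (95% interval -0.71 to 0.54). The lowest and the highest libraries of each group lie nearly level. The ratio of miR-125b-5p to miR-125a-5p was 2.01 ± 0.11 in Control and 2.03 ± 0.31 in cKO (SD, n = 6), so the pair kept nearly the same proportion while both moved between libraries. miR-351, which carries the same seed, was chosen after the data were seen. It stood at 234 ± 38.9 CPM in Control and 247 ± 45.9 CPM in cKO, with a log2 fold change of 0.08 ± 0.16.

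Of the ACCCGUA guides, miR-99b had the widest Control range. It ran from 6335 through 10386 to 37002 CPM in Control and from 10367 through 13384 to 20260 CPM in cKO. A single Control library reached the highest value, and the cKO libraries lie inside the Control range. The log2 fold change was -0.04 ± 0.36 (95% interval -0.81 to 0.74). miR-100 ran from 1966 through 2724 to 4942 CPM in Control and from 2215 through 3346 to 5441 CPM in cKO, with a log2 fold change of 0.09 ± 0.25. miR-99a, which differs from miR-100 at 1 base, ran from 1717 through 2662 to 3744 CPM in Control and from 2076 through 2593 to 3388 CPM in cKO. Its log2 fold change was 0.02 ± 0.18 (95% interval -0.37 to 0.40), the tightest interval of the 7 guides.

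The direction for miR-99b and miR-100 depended on which libraries were compared. Libraries numbered 1 to 3 and 4 to 6 had been seen to differ in miRNA profile, and the 4 libraries that stand apart all have numbers 1 to 3. miR-99b had a log2 fold change of -0.54 within numbers 1 to 3 and 0.76 within numbers 4 to 6, and miR-100 of -0.48 and 0.73. The difference of the cKO effect between the sets was 1.27 ± 0.54 for miR-99b and 1.20 ± 0.38 for miR-100 (edgeR unadjusted p = 0.0351 and 0.00766). Adjusted over 494 miRNAs, p was 1 for both and 0 of 494 were called (0%), so the difference was not past the threshold. Without the 4 libraries the log2 fold changes were 0.58 (adjusted p = 0.451) and 0.61 (adjusted p = 0.394).

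The miR-10 guides were the least abundant. miR-10a ran from 143 through 185 to 483 CPM in Control and from 113 through 226 to 389 CPM in cKO, with a log2 fold change of -0.02 ± 0.32 (95% interval -0.72 to 0.67). miR-10b in the 6 Control libraries was 47.6, 10.97, 58.9, 22.5, 8.15 and 13.6 CPM, and in the 6 cKO libraries 29.8, 80.1, 130.3, 38.4, 17.9 and 53.4 CPM. Kat2a cKO 2 and 3 lie above every Control library, the other 4 cKO libraries lie inside the Control range, and 5 of 6 cKO libraries exceed the Control mean. The means were 26.9 ± 21.2 and 58.3 ± 41.3 CPM (SD, n = 6). The log2 fold change was 1.12 ± 0.53 (95% interval -0.02 to 2.26), the largest of the 13, and did not pass the test (edgeR unadjusted p = 0.0545, adjusted p = 0.997). DESeq2 gave 1.13 with an unadjusted p of 0.0285 and an adjusted p of 0.88. Leaving out 1 library at a time gave 0.71 to 1.51. The ratio of miR-10a to miR-10b ran from 2.53 to 59.2 (median 6.13). The top value is Control 5, without which the highest was 13.1 and the ratio still ranged by 5.16-fold, beside 1.58-fold for the ratio of the miR-125 pair over all 12 libraries. The range of miR-10b itself was 15.99-fold, and 9.83-fold without Kat2a cKO 3. Over the 12 libraries miR-10b varied with a coefficient of variation (CV) of 82.9%.

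The other arms of the hairpins are usually the passenger strands. miR-99b* ran from 22.8 through 26.6 to 37.3 CPM in Control and from 28.9 through 33.9 to 40.8 CPM in cKO. The groups overlap, although 6 of 6 cKO libraries lie above the Control mean. The log2 fold change was 0.32 ± 0.16 (edgeR unadjusted p = 0.0634, adjusted p = 0.997). miR-125b-2-3p stood at 775 ± 136 CPM in Control and 744 ± 116 CPM in cKO, and miR-125b-1-3p at 191 ± 23.1 and 201 ± 28.3 CPM. The remaining passenger arms had log2 fold changes of -0.09 ± 0.30 (miR-99a*), 0.12 ± 0.20 (miR-125a-3p) and -0.06 ± 0.31 (miR-100*).

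The ratio of the named arm to the other arm cancels the scaling of a library. With nothing added to either arm, its median over 12 libraries was 19.8 for miR-125b-5p over miR-125b-2-3p (15.2 to 63.8), and 81.9 over miR-125b-1-3p (66.5 to 218). It was 60.1 for miR-99a (29.0 to 165), 411 for miR-99b (170 to 1466), 442 for miR-125a (373 to 775) and 1144 for miR-100 (523.6 to 2252). In these 6 pairs reads of the 5p arm were thus far more numerous, by a factor that moved between libraries. For each pair the median was higher in the 4 libraries that stand apart than in the other 8. For miR-125b-5p it was 38.9 against 18.4 over miR-125b-2-3p and 140 against 77.7 over miR-125b-1-3p. It was 90.9 against 49.4 for miR-99a, 612 against 330 for miR-99b, 568 against 419 for miR-125a and 1612 against 1026 for miR-100. The sets overlapped except in the miR-125b pairs. miR-125b-5p holds the reads of both hairpins, so its ratios are not those of 1 hairpin, and no ratio was analysed for miR-10. For miR-99a the top of the range was Kat2a cKO 3, without which it was 105. Control 2 was the top of every other pair. Without Control 2 the top was 703 for miR-99b, 588.5 for miR-125a and 1803.5 for miR-100. For miR-125b-5p it was then 44.1 over miR-125b-2-3p and 159 over miR-125b-1-3p. In 5 of 6 pairs the span exceeded the median span of 1.38 (log2) over all 182 arm pairs of the table. No arm ratio passed the test between genotypes. With limma on log2 ratios (1 CPM added to each arm), 0 of the 6 pairs passed, against 0% of all 182 pairs, of which 2 had an unadjusted p under 0.05, and the adjusted p was 0.987 for each of the 6. Their log2 fold changes ran from -0.18 ± 0.20 (miR-125a) to 0.24 ± 0.39 (miR-99a).

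**Figure D3:**
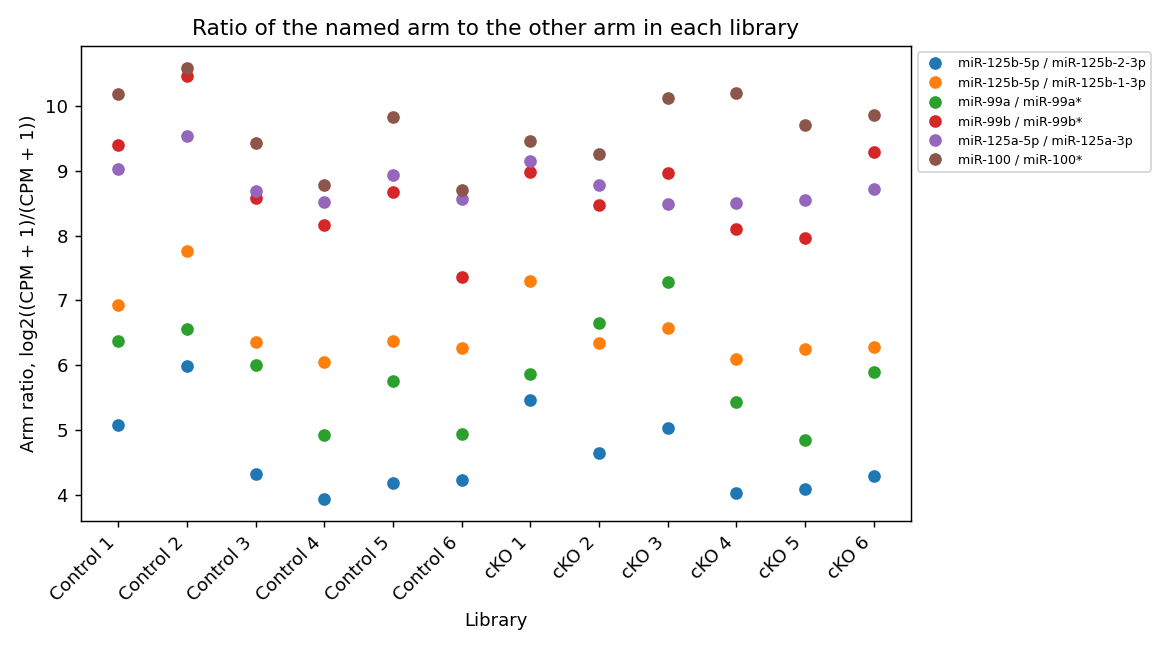
Ratio of the named arm to the other arm for the 6 pairs in each library, as log2 of CPM + 1 over CPM + 1, Control on the left and Kat2a cKO on the right. The ratio for miR-99b spans the widest range, 3.09 on the log2 scale, and that for miR-125a the narrowest, 1.04.

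miR-99b, miR-125a-5p, miR-125b-5p and miR-100 varied between libraries more than the 3p arms of miR-125b or the let-7 neighbours. Among the 206 miRNAs with a mean of at least 100 CPM, the median CV was 21.9%. It was 55.4% for miR-99b (rank 6 of 206), 45.6% for miR-10a, 41.6% for miR-125a-5p, 39.1% for miR-125b-5p and 33.3% for miR-100. miR-99a (21.3%), miR-125b-2-3p (16.04%) and miR-125b-1-3p (12.8%) lay below the median. let-7a, let-7c and let-7e, which come from the same clusters, although let-7a and let-7c also have other hairpins, ranged by 1.45-fold, 1.37-fold and 1.35-fold. Thus miR-99b ranged by 5.84-fold where let-7e, encoded within the same 692 bases, ranged by 1.35-fold. The other arms of these hairpins had the reverse order, with 1.79-fold for miR-99b* and 2.67-fold for let-7e*. Without Control 2, miR-99b ranged by 3.20-fold with a CV of 34.0%. The ratio of miR-99b to let-7e ran from 2.71 to 14.3, and to 8.64 without Control 2. None of the 8 let-7 rows passed the test (median log2 fold change -0.03), of which the rows of let-7a-1* and let-7c-2* hold identical counts.

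**Figure D4:**
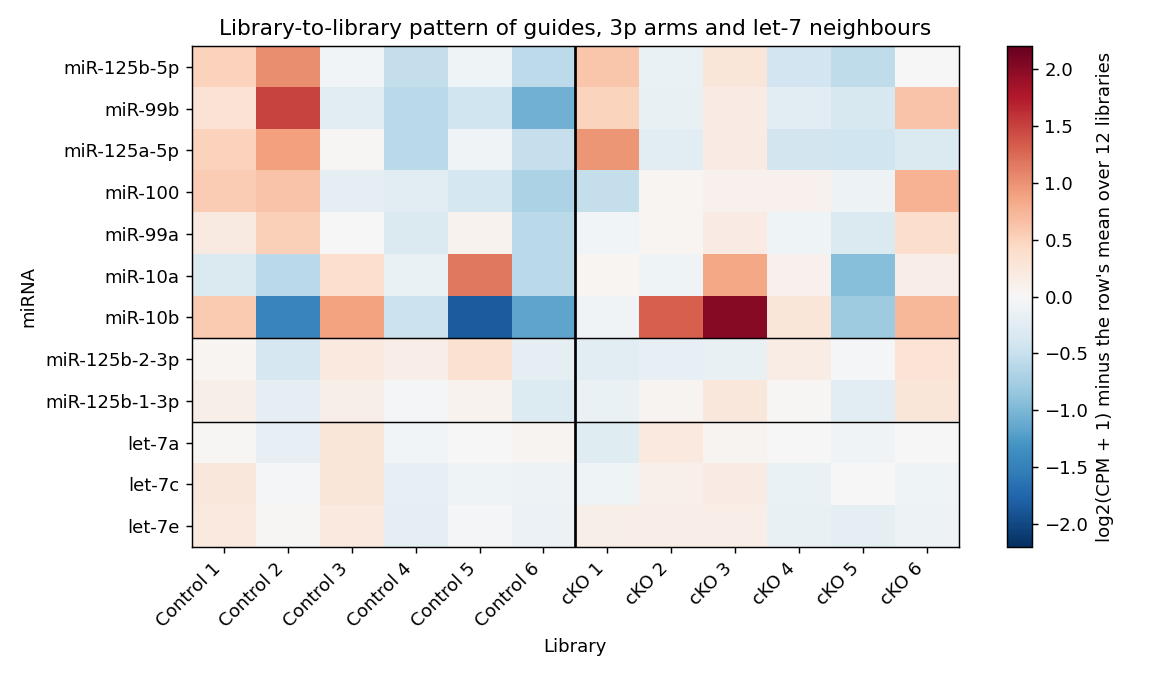
Guides, 3p arms of miR-125b and let-7 neighbours in each library, as log2(CPM + 1) minus the mean of the row over 12 libraries, red above and blue below. miR-125b-5p and miR-125a-5p are high in Control 1, Control 2, Kat2a cKO 1 and Kat2a cKO 3, while let-7a, let-7c and let-7e stay near 0 in every library.

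Much of that variation followed the 4 libraries that stand apart. Their median level of miR-125a-5p was 14976 CPM and that of the other 8 was 7110 CPM, a ratio of 2.11, and the sets did not overlap (10346 to 17791 against 6061 to 9247 CPM). For miR-125b-5p the sets did not overlap either (22010 to 37115 against 12226 to 18200 CPM), with a ratio of 1.78. It was 1.63 for miR-99b, 1.42 for miR-100 and 1.18 for miR-99a. For miR-125b-2-3p it was 0.78, for miR-125b-1-3p 0.97 and for miR-10a 0.92. Of the rows with a mean under 100 CPM, miR-125a-3p had 1.55, and its sets did not overlap (21.9 to 30.2 against 15.6 to 21.3 CPM). The ratio was 1.27 for miR-10b, 0.85 for miR-99b*, 0.66 for miR-99a* and 0.65 for miR-100*. Over the 206 miRNAs the median ratio was 0.98 and the 90th percentile 1.80, which miR-125a-5p exceeded and miR-125b-5p did not quite reach. The list of red cell miRNAs (4 rows) summed to 11414 to 18183 CPM in the 4 libraries and 3655 to 8536 CPM in the other 8. Nearly all of that sum was miR-486, with a ratio of medians of 2.49. miR-486* (1.57) was also higher in the 4, whereas miR-451 (0.87) and miR-144* (0.78) were lower. The choroid plexus and epithelium list (13 rows) summed to 5371 to 8610 CPM in the 4 and 3542 to 5178 CPM in the 8. miR-204 (2.05) carried that sum. Also higher in the 4 were miR-204* (3.74), miR-211 (1.57), miR-200b (1.14) and miR-34b-3p (1.06). Lower in the 4 were miR-34c (0.34), miR-34b-5p (0.47), miR-449a (0.54), miR-429 (0.64), miR-200a (0.66), miR-141 (0.68), miR-34c* (0.92) and miR-203 (0.96). The neuron list summed to 61847 to 66153 CPM in the 4 and 66344 to 82699 CPM in the 8. The vessel list summed to 13888 to 17936 and 18960 to 23321 CPM, so both sums were lower in the 4 without overlap. In the neuron list miR-9 (0.75), miR-9* (0.67), miR-137 (0.59), miR-138 (0.60), miR-132* (0.97) and miR-153 (0.58) were lower in the 4. Every other neuron row was higher, from 1.05 (miR-124*) to 1.95 (miR-129-1-3p). In the vessel list miR-145 (1.57) and miR-143* (1.01) were higher, and the other rows lower, from 0.71 (miR-126-5p) to 0.89 (miR-126-3p). The sums of the let-7, oligodendrocyte and microglia lists overlapped between the sets, although some of their rows did not. Higher in the 4 without overlap were miR-150 (1.95) and let-7e* (1.55). Lower without overlap were miR-21 (0.59) and miR-338-3p (0.66). The other rows of these lists overlapped. The rows of all these lists belong to the 481 miRNAs of the first principal component. Since the 4 libraries stand apart on that component, differences in these sums and rows are partly built in. The part of these cell types in the levels of the guides was not tested.

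Likeness was read as Pearson's r of log2 CPM over 12 libraries after removing the mean of each group, among the 206 miRNAs, as a description. The points share their libraries and depth, and the second value of each pair leaves out the 4 libraries that stand apart. For miR-125b-5p the nearest were miR-330* (r = 0.969, then 0.91), miR-129-2-3p (0.969, 0.804) and miR-667 (0.967, 0.774). For miR-125a-5p they were miR-664 (0.984, 0.946), miR-484 (0.976, 0.862) and miR-328 (0.970, 0.705). The nearest to miR-99b were miR-501-3p (0.917, 0.982), miR-125b-5p (0.909, 0.826) and miR-129-2-3p (0.885, 0.73). miR-100 was most like miR-409-5p (0.880, 0.988), miR-501-3p (0.841, 0.974) and miR-212-5p (0.840, 0.854). miR-99a was most like miR-501-3p (0.895 both times), miR-212-5p (0.879, 0.903) and miR-99b (0.871, 0.913). For miR-10a the nearest was miR-872* (0.773, 0.83), then miR-125b-1-3p (0.712, 0.822) and miR-128 (0.660, 0.601). miR-872* (0.842, 0.795), miR-10a (0.712, 0.822) and miR-351 (0.693, 0.969) were nearest to miR-125b-1-3p. miR-24-2* (0.904, 0.885), miR-434-5p (0.884, 0.789) and miR-186 (0.877, 0.799) were nearest to miR-125b-2-3p. Within the members, both miR-125 5p arms moved together (r = 0.954, then 0.849), and miR-10a with miR-10b did so little (0.294, 0.129). miR-125b-5p and miR-10a had an r of 0.083 over 12 libraries and 0.798 over 8.

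The copies of miR-125b were compared in both tables. In the miRNA table, the share of miR-125b-2-3p in the 3p arms of both copies was 80.0 ± 1.81% in Control and 78.6 ± 2.82% in cKO (SD, n = 6), between 74.4% and 82.1% in every library. The 3p reads thus came mostly from the copy of chromosome 16, at a steady proportion (two-sided exact permutation test, p = 0.31, adjusted p = 0.52 over 2 tests). In the table of all RNAs, whose columns give the group but not the library number, the share of Mir125b-2 in the reads of both Mir125b rows was 39.5 ± 24.6% in Control and 30.9 ± 18.4% in cKO. It ran from 7.02% to 71.5% (exact permutation p = 0.52, adjusted p = 0.52). The 5p arm has the same sequence in both hairpins, and how its reads were divided between the rows is not given in the sources used here. The CV was 69.1% for Mir125b-1, 63.4% for Mir125b-2 and 39.9% for their sum, so the split between the rows varied more than their total.

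**Figure D5:**
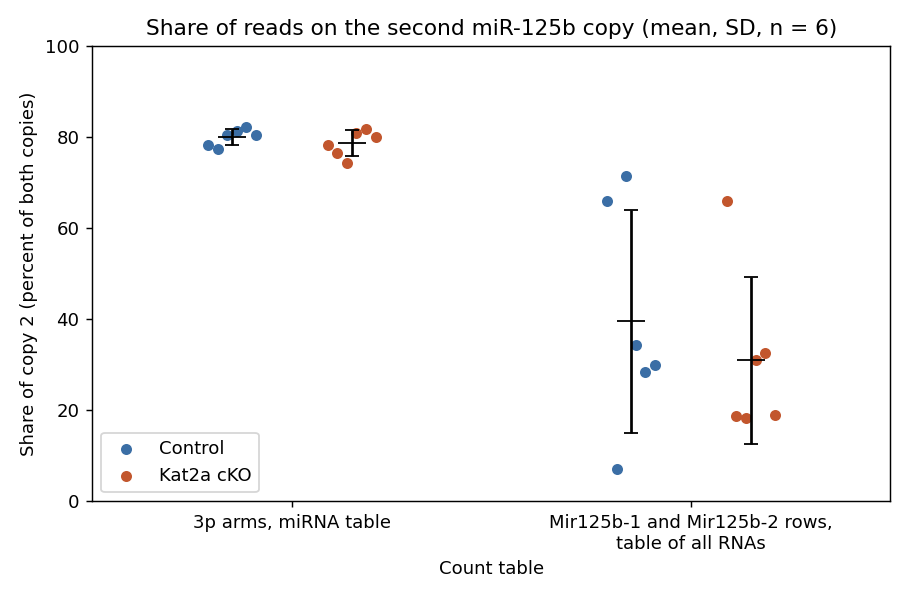
Share of the second copy in the miR-125b reads, in percent, from the 3p arms of the miRNA table (left) and from the Mir125b-1 and Mir125b-2 rows of the table of all RNAs (right), with mean and SD of 6 libraries a group. The 3p arms stay between 74.4% and 82.1%, and the rows of the other table spread from 7.02% to 71.5%.

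The table of all RNAs holds a row for each of the 8 precursor genes. With edgeR 0 of 1846 tested rows passed (0%; 81 at an unadjusted p under 0.05), DESeq2 called 10, and 0 of the rows named here were among the calls of either. Mir10b stood at 8.19 ± 5.51 CPM in Control and 18.5 ± 14.3 CPM in cKO, with a log2 fold change of 1.16 ± 0.68 (95% interval -0.31 to 2.63), in the direction of mature miR-10b. Both tables describe the same libraries, so this is no separate evidence. Mir125a stood at 43664 ± 22576 and 40019 ± 7526 CPM, Mir99b at 2972 ± 2071 and 2836 ± 785 CPM, and Mir100 at 972 ± 260 and 1021 ± 226 CPM. Mir125b-1 stood at 8669 ± 7966 and 8179 ± 3325 CPM and Mir125b-2 at 4595 ± 3123 and 3458 ± 1952 CPM. In this table Mir125a, with a hairpin of 68 bases, was thus above both Mir125b rows (77 and 71 bases), whereas in the miRNA table miR-125a-5p was below miR-125b-5p, and the cause was not tested. Over the 8 rows, 2 log2 fold changes were above 0 and 6 below, with a median of -0.08. Mirlet7a-2, the neighbour of Mir100, had -0.93 ± 0.45 (edgeR adjusted p = 1), and Mirlet7c-1 and Mirlet7e had 0.04 and -0.06.

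Few reads fell on the longer genes around the hairpins or in their known pathway. The libraries were made from small RNA, so reads on these genes need not follow the levels of their full transcripts. The Hox genes had 44 rows, of which 31 had under 10 reads in every library and 2 could be tested, Hoxb3 with a log2 fold change of 0.47 ± 1.13 and Hoxd9 with -1.35 ± 0.94. These 2 and the following Hox genes were picked for coverage or position after their values were seen. Hoxd4, in whose intron Mir10b lies, had 7 reads in all Control and 4 in all cKO libraries, and Hoxb4, beside Mir10a, had 5 and 16. Mir99ahg had 831 and 58 reads, of which 800 were in 1 Control library, and Spaca6 had 27 and 28. Of the let-7, Lin28 and Mtor genes, 2 of 13 rows could be tested. Dgcr8, a part of the complex that cuts primary transcripts, had a log2 fold change of -0.05 ± 0.30, and Mtor had -0.25 ± 0.48. Dicer1, which cuts hairpins, had 63 and 91 reads and was not tested. Hmga2 had 76 and 17 reads, at most 19 in a library, and Igf2bp1 had 57 and 37. Neither was tested, and both are named after their values were seen. Lin28a had 8 and 10 reads and Lin28b 17 and 27 (named for their role, after their values were seen), so that the levels of these targets could not be read from these libraries. Of the choroid plexus genes, 1 of 6 rows could be tested, Aqp1, with a log2 fold change of 0.72 (95% interval -1.46 to 2.90).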

How the data were processed

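TRI Reagent served for the extraction, a DNase step followed, and Illumina kits with a gel-excised band gave the libraries, per the labels' protocols. CASAVA was used, per the submitters' processing notes. The aligner, genome build and annotation are not given in the sources used here. The deposited values are whole-number counts per miRNA and, in a second table, counts per RefSeq transcript. The lowest Control mean in the miRNA table is 10, so rows may have been chosen on it. A row with no name (0.00015% of reads) was left out. Tests used edgeR 4.0.16 (TMM, its default filter, quasi-likelihood), limma 3.58.1 for arm ratios and DESeq2 1.42.0 as the alternative, in R 4.3.3, with a threshold of 0.05 after Benjamini-Hochberg adjustment over all rows tested. Libraries of a group differed by far more than sampling noise. The fit was tested on simulated counts. Of 35230 transcript rows, 26081 matched a RefSeq symbol, and totals were 1119938 to 4464600 reads. All members are named, with the 3 most similar miRNAs of each member of at least 100 CPM. The plan was to name at most 4 genes of each other list, and for several lists more are named here. The members and lists were chosen with earlier results of these data known. The miR-351 and Kat2a lists and the set without 4 libraries were added after seeing the data. Hairpin positions are from GENCODE M21. Means carry the SD of 6 libraries.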

Additional observations from a re-analysis of the deposited data

Results flagged for a closer look

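In 9 of 54 groups checked, 1 library lay farther from its neighbours than Dixon's 95% critical value for 6 samples allows. For normal values chance flags about 1 in 20 groups, or 2.7 of 54. The groups share their libraries and CPM need not be normal, so 9 against 2.7 is only a rough guide. The values below are the gap to the nearest library over the range of the group. For miR-99b, Control 2 (37002 CPM, next 16465) gave 0.67. For miR-125a-5p, Kat2a cKO 1 (17791 CPM, next 10346) gave 0.67. For miR-100, Kat2a cKO 6 (5441 CPM, next 3408) gave 0.63. Control 2 and Kat2a cKO 1 are among the 4 libraries that stand apart.

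In the table of all RNAs, libraries carry letters in column order, since the columns give only the group. Both tables describe the same libraries, so a flag here may repeat one given above. Control b was high for Mir99b (7025 CPM, next 3203, 0.68) and for Mir125b-1 (24624 CPM, next 7733, 0.78). Control e was high for Mir10a (225 CPM, next 103, 0.71), and Kat2a cKO c likewise (172 CPM, next 93.8, 0.63). Control a was high for Mir100 (1482 CPM, next 1008, 0.68), and Kat2a cKO a for Mir125b-2 (7360 CPM, next 3030, 0.81). The 5p arm has the same sequence in both Mir125b hairpins.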

How the results depend on the processing

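The count of members called was 0 under every alternative run, and so was that of arm ratios. The count of miRNAs called was 1, and became 2 with DESeq2, 0 with numbers 1 to 3 alone, 0 with numbers 4 to 6 alone, 0 without the 4 libraries that stand apart and 0 when any 1 library was left out. Transcript calls were 0, 10 with DESeq2, and 0 to 2 when 1 library was left out (1 without Control d, 2 without Kat2a cKO a). Log2 fold changes near 0 changed sign as follows. With numbers 1 to 3 alone they were -0.48 (miR-100), -0.20 (miR-99a), 0.47 (miR-10a), 0.13 (miR-100*) and -0.46 (arm ratio of miR-100). With numbers 4 to 6 alone they were 0.087 (miR-125b-5p), 0.76 (miR-99b), 8e-04 (miR-125a-5p), 0.047 (miR-125b-2-3p), 0.073 (miR-99a*), 0.026 (arm ratio of miR-125b-5p over miR-125b-2-3p) and 0.39 (arm ratio of miR-99b). Without the 4 libraries they were 0.037 (miR-125b-5p), 0.58 (miR-99b), -0.030 (miR-125a-3p), 0.0025 (miR-100*), 0.10 (arm ratio of miR-125b-5p over miR-125b-2-3p) and 0.26 (arm ratio of miR-99b). With the number sets as covariate miR-99b was 0.12. The cause was not tested. Leaving out 1 library gave -0.30 to 0.11 (miR-125b-5p), -0.20 to 0.47 (miR-99b), -0.36 to 0.13 (miR-125a-5p), -0.10 to 0.25 (miR-100), -0.087 to 0.14 (miR-99a), -0.24 to 0.30 (miR-10a), -0.31 to 0.070 (miR-99a*) and -0.27 to 0.15 (miR-100*). For arm ratios it gave -0.20 to 0.25 and -0.31 to 0.081 (miR-125b-5p over its copies 2 and 1), -0.021 to 0.47 (miR-99a) and -0.42 to 0.20 (miR-99b). miR-10b and miR-99b* kept their sign throughout.

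Same-numbered Control and cKO libraries deviated together with r of 0.43, -0.16, 0.15, 0.69, 0.25 and 0.27 for numbers 1 to 6. Since r was not above 0.1 for every number, the main fit did not pair the libraries. These values cannot exclude that libraries of the same number were handled together. Only Kat2a cKO 4 was most like its own number. With the replicate number as a block, 0 miRNAs were called, miR-99b was 0.19 and miR-10a 0.086.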
